A study of Mus musculus with 9 samples.

Results

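Glucose breakdown to pyruvate and lactate, together with the response to low oxygen, was followed through 32 genes in skeletal progenitors of mouse bone marrow. The genes were taken by name from a table of 24186 genes: 24 encode glucose transporters, glycolytic enzymes and the enzymes and transporters that handle pyruvate and lactate, and 8 belong to the hypoxia response. Of the 32 genes, 31 had enough counts to be tested, and Car9, a carbonic anhydrase induced by hypoxia, did not. The libraries came from 3 groups of 3: adipogenic progenitors treated with IFNγ at 10 ng/ml for 3 days, osteogenic progenitors, and untreated adipogenic progenitors. All cells were stromal cells flushed from femora and tibiae of adult C57Bl/6 mice of the irtTA-GBD*-TAg transgenic strain. In these cells dexamethasone and doxycycline switch on the large T antigen of SV40, so that they grow rapidly and can be cloned, and both inducers were withheld for 3 days before RNA was taken from any group. The medium held 1 g/L glucose. The libraries of each group are numbered 4, 5 and 6, and values per library are given in that order. The series calls them biological replicates. Whether they come from separate clones or animals is not stated, so the p-values measure the spread among these libraries.

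Glycolysis splits glucose into pyruvate in a chain of enzyme steps, several of which can be carried out by isozymes from different genes. Hexokinase and phosphofructokinase catalyse committed steps early in the chain, and lactate dehydrogenase and the monocarboxylate transporters dispose of pyruvate as lactate. Hypoxia-inducible factor, a dimer whose alpha subunit Hif1a is controlled mainly through the stability of its protein, activates many of these genes when oxygen is low, and bone marrow is a tissue of low oxygen tension.

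The libraries held 27440089 to 39251602 counts, and levels are given in CPM, the count scaled to a common library total, with libraries adjusted by the trimmed mean of M values. All 7 interferon response genes set aside as a check of the treatment, Irf1 among them, were called higher in IFNγ-treated libraries, and 5 of 8 osteogenic markers were called higher in osteogenic than in untreated adipogenic libraries. Of the adipogenic markers, Lpl was called lower in osteogenic than in untreated adipogenic libraries, while the fat cell products Adipoq and Plin1 had 0 to 8 and 0 to 2 counts. The 8 markers of this list, with Cxcl12 the most abundant, summed to 356 to 810 CPM in IFNγ-treated, 1019 to 1439 CPM in osteogenic and 856 to 3820 CPM in untreated adipogenic libraries. The blood cell marker Ptprc had 0 to 4 counts and the endothelial marker Cdh5 0 to 2. The 32 genes took 0.723% to 0.859% of all counts in IFNγ-treated libraries, 0.404% to 0.431% in osteogenic and 0.375% to 0.482% in untreated adipogenic ones. Their summed level was therefore higher in every IFNγ-treated library than in any other library.

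**Figure D1:**
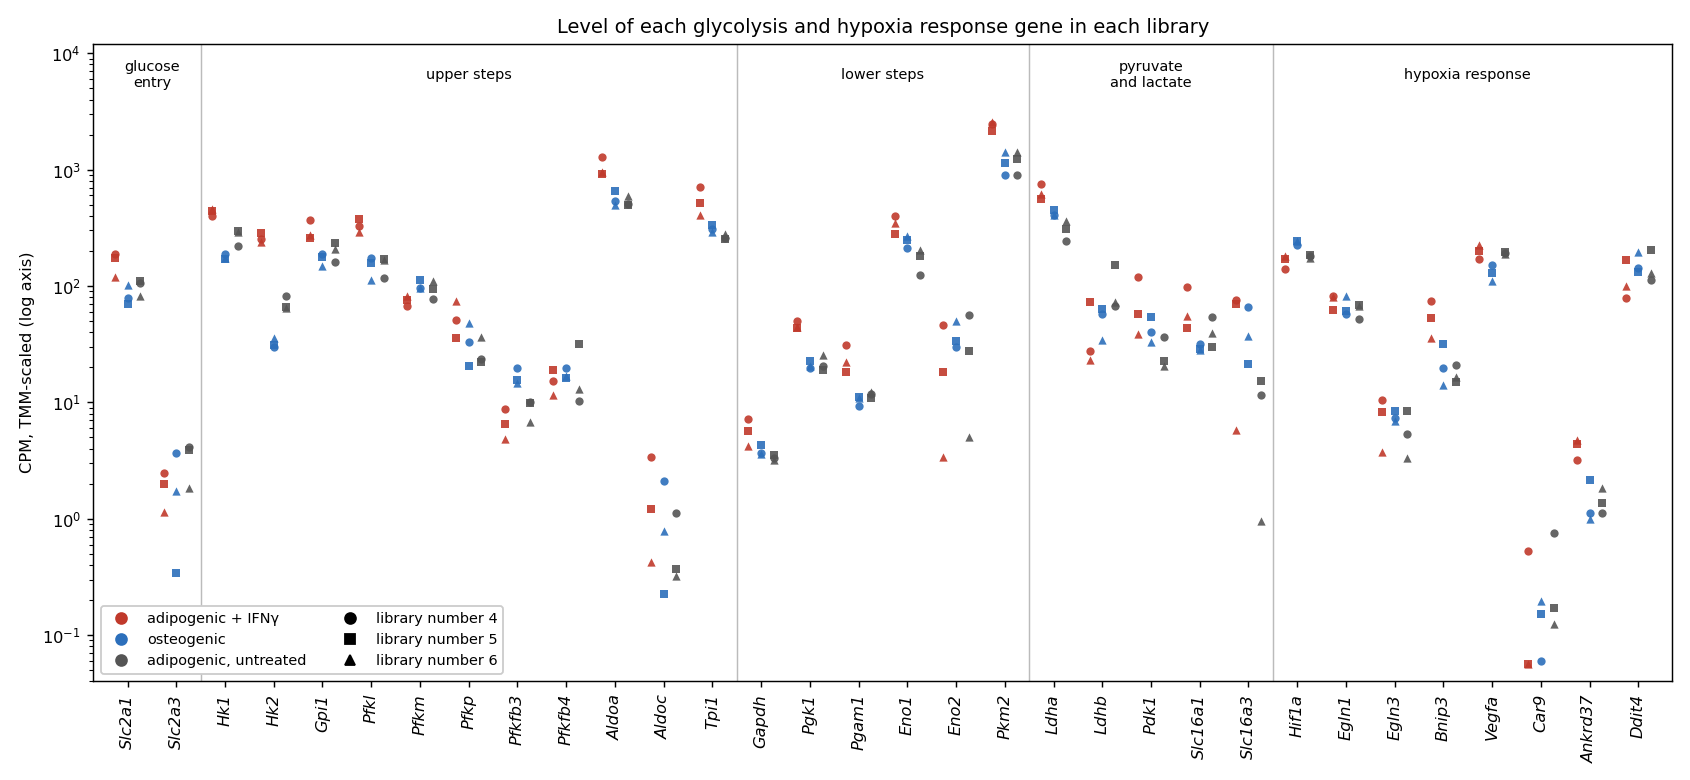
Level of each of the 32 genes in every library, in pathway order. The vertical axis is CPM on a log scale; colours are the groups and symbols the library numbers. Hk2 lay at 251, 285 and 241 in IFNγ-treated, 30.0, 31.3 and 35.9 in osteogenic and 81.8, 65.4 and 64.5 in untreated adipogenic libraries, with no overlap among the 3 groups.

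Some of these genes have close copies elsewhere in the genome, which limits how far their deposited level can be read. The longest protein-coding transcript of each member was cut into windows of 75 bases, the length of the reads. Each window was searched for in the transcripts of all other genes of the GENCODE M21 annotation. For Gapdh, which oxidises glyceraldehyde phosphate and is often used as a reference gene, 80.3% of the windows also occurred in another of 121 genes, 113 of them pseudogenes. The share was 67.5% for Pgk1, 65.4% for Eno1, 46.3% for Bnip3, 40.6% for Pgam1 and 19.6% for Pkm2, the table's older name for Pkm. It was 0 for Hk2, Pfkl, Pfkm, Pdk1, Slc16a1, Slc16a3 and Vegfa. How the authors assigned reads with several matches is not given in the sources used here, so the levels of the copied genes are uncertain, and differences between groups rest on whatever part of their reads was kept.

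**Figure D2:**
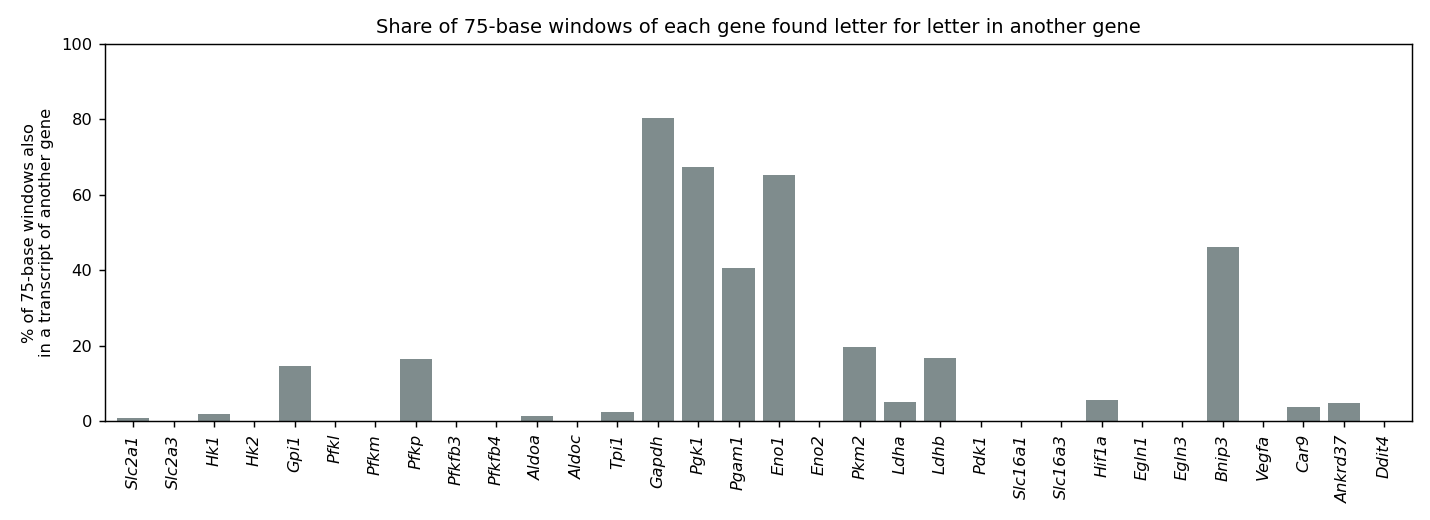
Percentage of the 75-base windows of each gene's longest protein-coding transcript that occurred letter for letter in a transcript of another gene, in pathway order. Gapdh had the highest bar at 80.3%, followed by Pgk1 at 67.5% and Eno1 at 65.4%, while Hk2 and Pfkl had none.

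IFNγ-treated adipogenic progenitors were first set against untreated ones. Genes at successive steps of glycolysis were higher after treatment: Hk2, Pfkl, Aldoa, Tpi1, Pgk1, Pgam1 and Ldha rose, by log2 fold changes between 1.00 and 1.88, and none of the 31 fell. These 7 calls were made with edgeR's quasi-likelihood test, two-sided, at a Benjamini-Hochberg adjusted p under 0.05 over all 15098 genes tested, of which 2.01% were called higher and 0.245% lower. At an unadjusted p under 0.05, 17 members were higher and 1 was lower, and DESeq2 and limma-voom also called 0 lower. The share of all genes at that unadjusted threshold was not computed, so unadjusted counts, here and below, stand without a background. DESeq2 called 13 members higher, where it called 4.74% of all genes, and limma-voom 9, where it called 2.32%. Over the 31 members 23 fold changes were positive and 8 negative, with a median of 0.76, while the median over all genes was -0.02. In 16 members every IFNγ-treated library lay above every untreated one and in 0 members below, against 10.2% and 7.17% of all genes tested. The summed level of the 24 glycolysis genes was 6395 to 7779 CPM in IFNγ-treated and 3098 to 4001 in untreated libraries. That of the 8 hypoxia genes was 558 to 663 in IFNγ-treated and 568 to 677 in untreated libraries, so the ranges of the hypoxia genes overlapped and those of the glycolysis genes did not. In bulk RNA, more cells of a kind and more RNA per cell cannot be told apart.

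Libraries of the same number in the IFNγ-treated and untreated adipogenic groups deviated from their group means together, which allowed the pairs to be compared. With the pair as a block, edgeR called 16 members higher, where 6.53% of all genes were called, and Ldhb lower, where 4.27% of all genes were called. The 9 members added among the higher ones were Slc2a1, Hk1, Eno1, Pkm2, Pdk1, Slc16a1, Slc16a3, Bnip3 and Ankrd37, and the 7 called without pairing were called again. With the number as a block over all 9 libraries, osteogenic ones included, 8 members were called higher and 0 lower, where 2.56% and 0.576% of all genes were called: Pfkp, Pkm2 and Bnip3 were added, and Aldoa and Pgam1 were lost (adjusted p = 0.0597 and 0.0588). Leaving out a single library cut the unpaired count of 7 to 3, 4 and 3 without IFNγ-treated library 4, 5 or 6, and to 2, 2 and 3 without untreated library 4, 5 or 6. Higher calls over all genes also fell in these fits, from 304 to between 185 and 260. Hk2 and Pgk1 kept their call in all 6 of these fits. Leaving out both libraries of a pair under the block gave 3, 4 and 5 higher calls without number 4, 5 or 6, and 0 lower calls each time. Over all genes there were then 371, 337 and 281 higher calls, against 986 with all pairs. Lower calls over all genes were 99, 115 and 65, against 645.

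**Figure D3:**
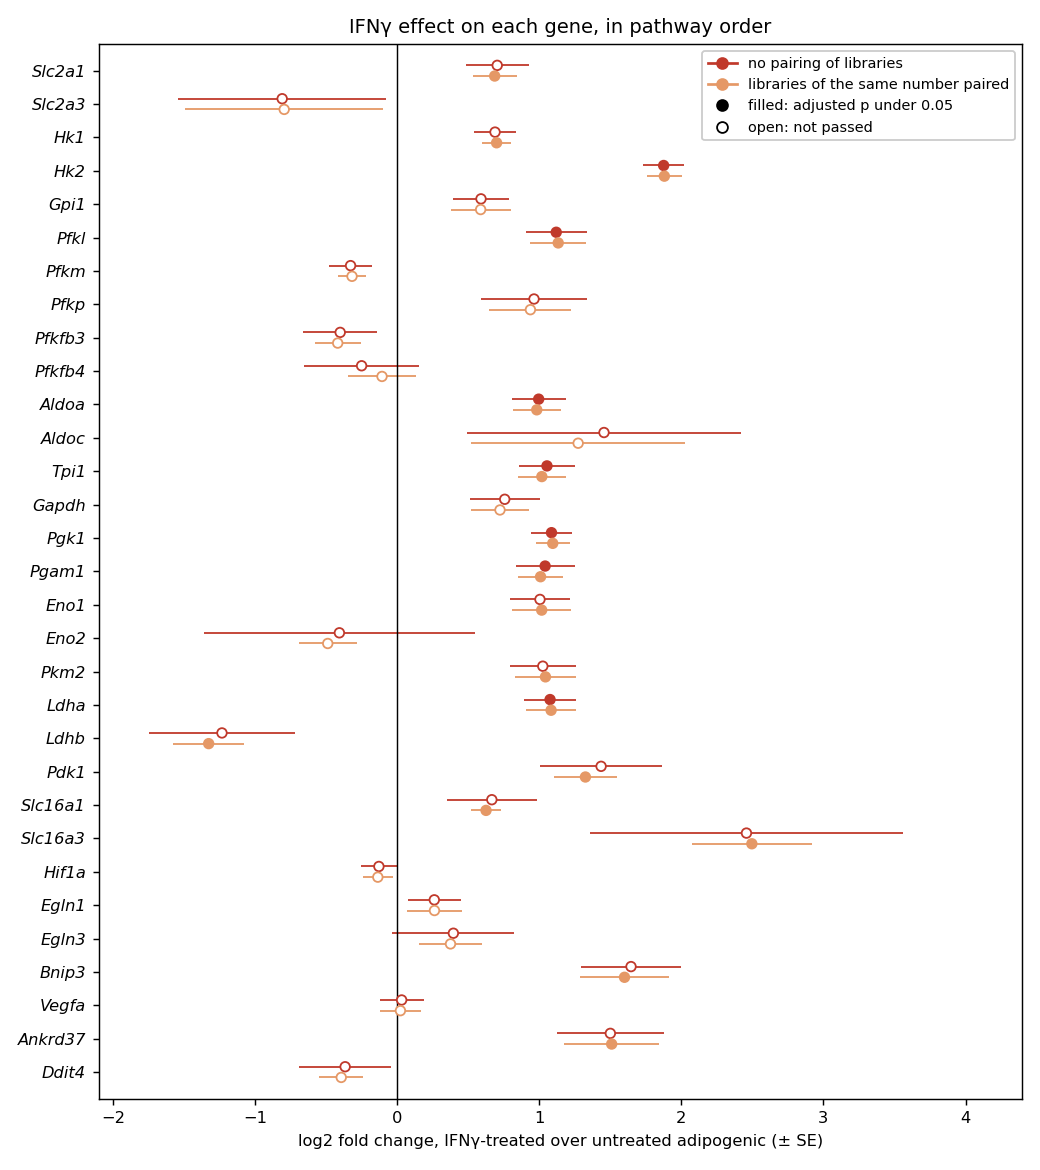
Log2 fold change of each tested gene, IFNγ-treated over untreated adipogenic progenitors, with its standard error, from the fit without pairing and from the fit that pairs libraries of the same number. Filled points passed an adjusted p of 0.05; 7 genes passed without pairing and 17 with it, Ldhb being the filled point left of 0.

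At the entry of glucose, Slc2a1, the transporter found in most cell types, had 189, 175 and 119 CPM in IFNγ-treated and 105, 109 and 82.4 in untreated libraries. All 3 treated libraries lay above all 3 untreated ones, although treated library 6 came close to untreated library 5. The log2 fold change was 0.70 ± 0.22 (SE), with an adjusted p of 0.177 without pairing and 0.0369 with it. Slc2a3, a transporter of high glucose affinity, was scarce, at 1.14 to 2.48 CPM in treated and 1.82 to 4.11 CPM in untreated libraries, and did not pass.

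Hexokinase, which phosphorylates glucose and so traps it in the cell, showed the smallest adjusted p of the members. Hk2, the inducible hexokinase of muscle and fat, had 251, 285 and 241 CPM in IFNγ-treated and 81.8, 65.4 and 64.5 CPM in untreated libraries. Every treated library was above every untreated one, with ratios within pairs of 3.07, 4.35 and 3.73. Its log2 fold change was 1.88 ± 0.14 with an edgeR adjusted p of 0.00045, which stayed between 0.00182 and 0.00374 when any 1 of the 6 libraries was left out. Hk1, the housekeeping hexokinase, had 403, 438 and 457 CPM in treated and 219, 294 and 292 CPM in untreated libraries, again without overlap. Its log2 fold change of 0.69 ± 0.15 had an adjusted p of 0.0558 without pairing and 0.00924 with it. Per kilobase of exon, the mean level of Hk2 in treated cells was 43.4 CPM and came near that of Hk1, 50.7 CPM, whereas in untreated cells Hk2 stood at 11.8 CPM and Hk1 at 31.4 CPM. Gpi1, which converts glucose phosphate to fructose phosphate, had 371, 257 and 275 CPM in treated and 159, 235 and 206 CPM in untreated libraries and did not pass with or without pairing (adjusted p = 0.13 and 0.209 in edgeR).

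Phosphofructokinase commits the sugar to glycolysis and is built from liver, muscle and platelet subunits. The liver subunit Pfkl had 328, 373 and 289.8 CPM in IFNγ-treated and 116, 172 and 167 CPM in untreated libraries. The groups were well apart, and the log2 fold change was 1.12 ± 0.22 with an adjusted p of 0.0377. The muscle subunit Pfkm had a fold change of the other sign, -0.33 ± 0.15, with 67.5, 76.0 and 81.2 CPM in treated and 78.0, 93.5 and 110.4 CPM in untreated libraries; the groups overlapped and it did not pass (adjusted p = 0.383). The platelet subunit Pfkp was lower than both per kilobase, at 5.69 CPM in treated and 2.92 CPM in untreated cells. Pfkfb3 and Pfkfb4 are bifunctional enzymes that make or remove an activator of phosphofructokinase. Pfkfb3 had 8.69, 6.57 and 4.85 CPM in treated and 10.0, 9.79 and 6.76 CPM in untreated libraries. Pfkfb4 had 15.3, 19.1 and 11.6 CPM in treated and 10.3, 31.5 and 12.9 CPM in untreated libraries. Both overlapped between groups and neither passed.

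Aldolase and triose phosphate isomerase complete the upper steps. Aldoa, the main aldolase here, had 1295, 914 and 955 CPM in IFNγ-treated and 504, 492 and 589.6 CPM in untreated libraries, a log2 fold change of 1.00 ± 0.19 (adjusted p = 0.0369). Tpi1 had 712, 520.0 and 409.7 CPM in treated and 258, 256 and 277 CPM in untreated libraries, a log2 fold change of 1.05 ± 0.20 (adjusted p = 0.0336). In both genes all treated libraries lay above all untreated ones, with treated library 4 highest. Aldoc, the brain form, had 0.426 to 3.37 CPM in treated and 0.324 to 1.13 CPM in untreated libraries. The calls of Pfkl and Aldoa were lost without any single one of the 6 libraries, with adjusted p-values up to 0.118 and 0.132. That of Tpi1 was lost without treated library 5 or any untreated library, with adjusted p-values up to 0.118.

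The lower steps, from glyceraldehyde phosphate to pyruvate, yield the ATP of glycolysis. Pgk1, a kinase, had 49.6, 43.7 and 44.2 CPM in IFNγ-treated and 20.6, 18.8 and 25.3 CPM in untreated libraries. The treated libraries were close to one another and all above the untreated ones, with a log2 fold change of 1.09 ± 0.14 (adjusted p = 0.00623, and 0.00799 to 0.034 with any 1 library left out). Pgam1, a mutase, had 30.9, 18.2 and 22.4 CPM in treated and 11.8, 10.8 and 12.2 CPM in untreated libraries, a log2 fold change of 1.04 ± 0.21 (adjusted p = 0.0434). The groups did not overlap, but this call was lost without treated library 4 or 6 or any untreated library, with adjusted p-values up to 0.145. Eno1, the common enolase, had 395, 279 and 345 CPM in treated and 125, 179 and 204 CPM in untreated libraries. Pkm2, pyruvate kinase, had 2482, 2124 and 2578 CPM in treated and 899, 1224 and 1407 CPM in untreated libraries. In both genes the groups were apart, with log2 fold changes of 1.01 ± 0.21 and 1.03 ± 0.23, and the adjusted p was 0.0543 and 0.0713 without pairing and 0.0293 and 0.0279 with it. Per kilobase, Pkm2 was the most abundant of the 32 genes, at 1002 CPM in treated and 492 CPM in untreated cells.

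Gapdh was listed below the main enzymes of the steps around it. It had 7.21, 5.70 and 4.17 CPM in IFNγ-treated and 3.32, 3.56 and 3.22 CPM in untreated libraries. Per kilobase this was 2.53 CPM in treated and 1.49 CPM in untreated cells, where Tpi1 stood at 248 CPM in treated and 119.6 CPM in untreated cells. Low levels were not confined to Gapdh. Pgk1 stood at 20.4 CPM in treated and 9.62 CPM in untreated cells, and Pgam1 at 13.02 and 6.32 CPM. Eno1, with a share of copied windows near that of Pgk1, was higher, at 63.2 and 31.5 CPM. The caution on copied genes given above therefore also holds for the calls of Pgk1 and Pgam1. For Gapdh, the treated libraries all lay above the untreated ones, and the log2 fold change of 0.76 ± 0.25 did not pass with or without pairing (adjusted p = 0.0708 and 0.195 in edgeR). The 50 Gapdh pseudogenes with a row in the table together had 31.8, 24.9 and 22.9 CPM of the unscaled library total in treated and 16.8, 16.9 and 18.5 in untreated libraries. They thus had more counts than Gapdh itself in each of these 6 libraries, and also stood higher in every treated library.

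At the fate of pyruvate, Ldha, the lactate dehydrogenase subunit of glycolytic tissues, had 752, 558 and 622 CPM in IFNγ-treated and 242, 309.6 and 365 CPM in untreated libraries. Treated and untreated libraries were apart, and the log2 fold change was 1.08 ± 0.19 (adjusted p = 0.0223); the call was lost without treated library 4 or 6 or untreated library 4 or 5, with adjusted p-values up to 0.0832. Ldhb, the subunit of oxidative tissues, had 27.5, 73.4 and 23.0 CPM in treated and 67.0, 152 and 72.3 CPM in untreated libraries. Number 5 was high in both groups, so the groups overlapped, but within pairs the treated library was lower in 3 of 3, at 0.411, 0.483 and 0.318 of its untreated partner. The adjusted p was 0.321 without pairing and 0.0233 with it, at a paired log2 fold change of -1.33. This paired call was lost when number 4, 5 or 6 was left out of both groups in turn, and with the block over all 9 libraries.

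Pdk1, the kinase that holds back pyruvate dehydrogenase, had 119, 57.6 and 38.6 CPM in IFNγ-treated and 36.5, 22.7 and 20.4 CPM in untreated libraries, with no overlap and treated library 4 far above the others (adjusted p = 0.158 without pairing and 0.0162 with it). The lactate carrier Slc16a3, the export form of glycolytic cells, had 75.9, 69.8 and 5.73 CPM in treated and 11.5, 15.1 and 0.948 CPM in untreated libraries. Number 6 was low in both groups, and within pairs the treated library was 6.60, 4.61 and 6.05 times its untreated partner. Its log2 fold change of 2.46 ± 1.10 had an adjusted p of 0.363 without pairing and 0.0168 with it. Slc16a1, the widespread carrier, had 97.1, 43.6 and 54.9 CPM in treated and 54.1, 29.7 and 39.4 CPM in untreated libraries, higher in 3 of 3 pairs (adjusted p = 0.398 without pairing and 0.0151 with it).

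Of the 7 hypoxia response genes tested, 0 were called with IFNγ without pairing by edgeR or limma-voom; 2 were higher at an unadjusted p under 0.05, and DESeq2 called 2 higher. Hif1a had 141, 169 and 182 CPM in IFNγ-treated and 181, 184 and 173 CPM in untreated libraries. Vegfa, the vascular growth factor and a classical hypoxia target, had 169, 198 and 223 CPM in treated and 194, 197 and 187 CPM in untreated libraries. Both overlapped between groups. The log2 fold change of Hif1a was -0.13 ± 0.12 with a 95% interval of -0.41 to 0.16. That of Vegfa was 0.03 ± 0.15, with an interval of -0.32 to 0.38, and its sign turned with the scaling (-0.015 under upper-quartile scaling). Bnip3, a mitophagy receptor, had 74.0, 53.0 and 35.9 CPM in treated and 20.8, 14.9 and 16.4 CPM in untreated libraries. Ankrd37, a small ankyrin repeat protein, had 3.19, 4.34 and 4.77 CPM in treated and 1.13, 1.37 and 1.85 CPM in untreated libraries. These 2 genes did not overlap between groups, and their adjusted p-values were 0.0598 and 0.102 without pairing and 0.0269 and 0.0352 with it. The oxygen sensors Egln1 and Egln3, which hydroxylate Hif1a, and Ddit4, a stress-induced inhibitor of mTOR signalling, overlapped between groups, with log2 fold changes of 0.26, 0.40 and -0.37. Egln1 ranged over 62.7 to 81.5 CPM in treated and 51.7 to 68.8 CPM in untreated libraries, and Egln3 over 3.78 to 10.4 CPM in treated and 3.32 to 8.48 CPM in untreated ones. Ddit4 ranged over 78.4 to 167 CPM in treated and 114 to 202 CPM in untreated libraries. Car9 had 18, 2 and 2 raw counts in treated, 2, 4 and 7 in osteogenic and 27, 6 and 5 in untreated libraries, with number 4 highest in both adipogenic groups.

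The isozyme make-up of several steps was compared as well as their total level. Hk2 made up 46.1% ± 2.76 of the hexokinase counts per kilobase of Hk1 and Hk2 together in IFNγ-treated cells and 27.7% ± 6.19 in untreated cells (SD, n = 3 each). Pfkl made up 71.1% ± 4.83 of phosphofructokinase in treated and 50.5% ± 3.24 in untreated cells, and Pfkm made up 23.4% ± 2.72 in treated and 45.2% ± 2.41 in untreated cells. Ldhb made up 6.51, 19.98 and 6.56% of lactate dehydrogenase in the treated libraries and 34.5, 48.2 and 27.4% in the untreated ones, so the share of Ldha was larger in every treated library. Of 10 isozyme shares compared, 5 did not overlap between treated and untreated libraries: those of Hk2, Pfkl, Pfkm, Ldhb and the minor transporter Slc2a3. The exact two-sided permutation test gave p = 0.1 for each, the smallest p that 3 against 3 libraries allow, and 0.231 after adjustment over the 30 shares and comparisons run. This test therefore cannot reach 0.05 for a share with 3 libraries a group. The shares of Eno2 and Slc16a3 spread widely among adipogenic libraries: Eno2 made up 11.7, 6.91 and 1.11% of enolase in treated and 34.1, 15.0 and 2.73% in untreated libraries, with number 4 highest and number 6 lowest in both groups.

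**Figure D4:**
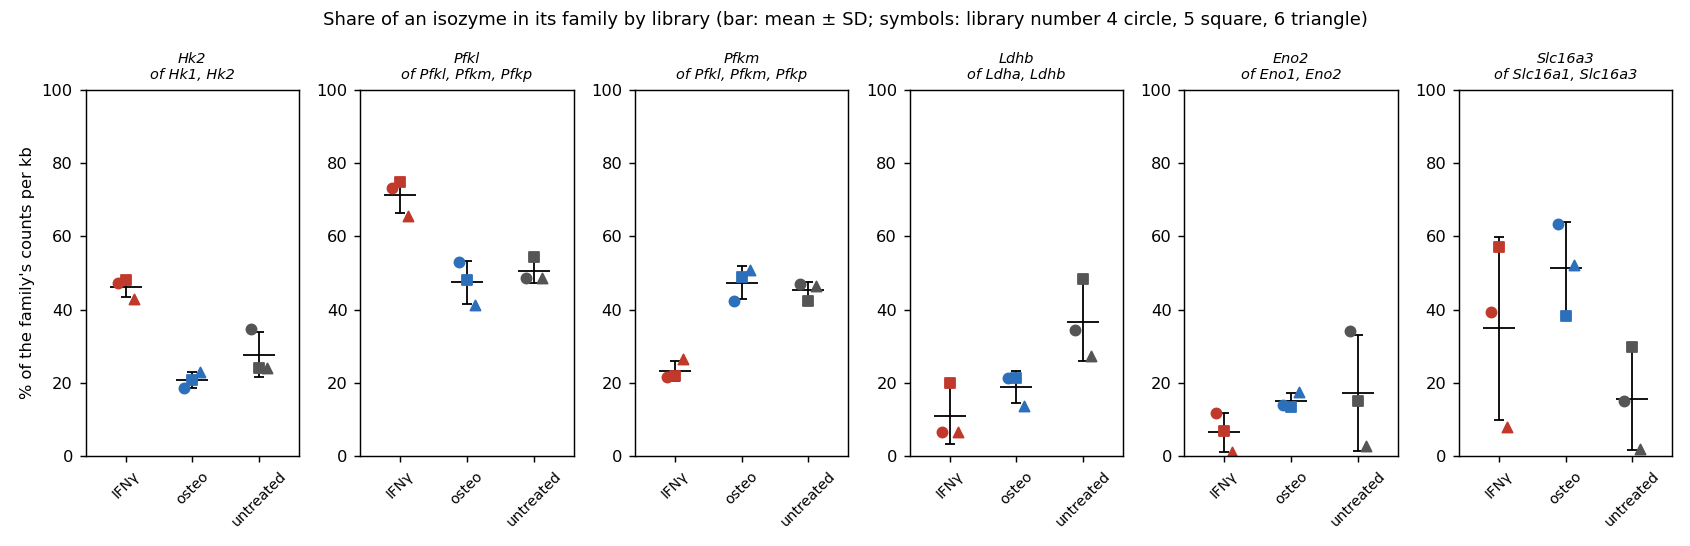
Share of 1 isozyme in the counts per kilobase of its family, in percent, for each library; black bars are means with SD (n = 3) and symbols are library numbers. Hk2 averaged 46.1% of hexokinase in IFNγ-treated, 20.8% in osteogenic and 27.7% in untreated adipogenic libraries, and Pfkl 71.1%, 47.4% and 50.5% of phosphofructokinase.

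Other routes of glucose carbon were examined with the same test. Of 14 further glycolysis genes tested 0 were called with IFNγ (1 higher at an unadjusted p under 0.05; 1 higher with DESeq2 and 0 with limma-voom), with a median log2 fold change of -0.06. Of 13 genes of pyruvate entry into mitochondria 0 were called (1 higher and 2 lower unadjusted; 1 lower with DESeq2 and 0 with limma-voom), with a median of -0.23. Pdk2, another kinase of pyruvate dehydrogenase, had a fold change of -0.92 ± 0.22, opposite in sign to Pdk1, with an adjusted p of 0.0928 without pairing and 0.0174 with it. Of 16 genes of the citric acid cycle and 7 of the pentose phosphate pathway 0 were called by edgeR, DESeq2 or limma-voom and 0 at an unadjusted p under 0.05, with medians of -0.08 and 0.14. Of 33 further hypoxia genes 0 were called (6 higher and 2 lower unadjusted; 4 higher and 1 lower with DESeq2, 0 with limma-voom), with a median of 0.02. Within that list Ak4, an adenylate kinase, and Fam162a, a mitochondrial protein, had fold changes of 1.94 ± 0.46 and 1.06 ± 0.29, while Lox, the collagen crosslinking enzyme, had -1.81 ± 0.46. Their adjusted p-values were 0.0855, 0.134 and 0.104 without pairing and 0.0138, 0.00443 and 0.0284 with it.

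Cell cycle genes had positive fold changes in the same comparison. All 36 tested had a positive fold change with IFNγ, with a median of 1.15; 0 passed without pairing in edgeR or limma-voom, 25 were higher at an unadjusted p under 0.05, 12 passed in DESeq2 and 25 passed with pairing. Their summed level was 2196 to 3866 CPM in IFNγ-treated and 1262 to 2333 CPM in untreated libraries, which overlap. The share of counts from mitochondrially encoded genes was 0.660% to 0.706% in treated and 0.930% to 1.38% in untreated libraries. The 6 endothelial markers summed to 22.2 to 54.4 CPM in treated and 9.22 to 17.8 CPM in untreated libraries, nearly all of it Kdr, a receptor for Vegfa, with 762 to 1825 counts in treated and 304 to 618 in untreated libraries. The defining endothelial markers Pecam1, Cdh5 and Emcn had at most 6, 2 and 0 counts in any library. Macrophage markers summed to 12.5 to 20.1 CPM in treated and 12.6 to 30.5 CPM in untreated libraries, which overlap. All 6 genes tested of the adipogenic marker list, which includes Cxcl12 and Lepr, had negative fold changes with IFNγ (median -0.68). Of these, 0 passed in edgeR and 1 was lower at an unadjusted p under 0.05. The summed level of the list, in which Cxcl12 was the most abundant gene, did not overlap, as given above. Of 8 osteogenic markers 7 had negative fold changes (median -0.86; 0 passed in edgeR, 2 were lower unadjusted), with sums of 1798 to 3833 CPM in treated and 4514 to 10299 CPM in untreated libraries. Stromal markers summed to 1467 to 2120 CPM in treated and 385 to 665 CPM in untreated libraries. Of the 6 tested only Ly6a, a surface antigen known to respond to interferons, was called, with 1040 to 1749 CPM in treated and 58.5 to 128 CPM in untreated libraries. The part of any of these lists, of the mitochondrial share or of Kdr in the glycolysis result was not tested.

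The promoters were read for short motifs that the members may share. RefSeq promoter windows (GRCm38.p6, 250 bases before to 50 after the start) were matched for 31 of the 32 genes, all but Slc2a3, with 45 windows in all. The core of the hypoxia response element, ACGTG or GCGTG on either strand, occurred in 36 of 45 windows (80%), and in 43.8% of all 32851 windows of the table. Median GC content was 62% in the members' windows and 52.7% in all windows, and the part of GC content in this difference was not tested. The members were chosen as glycolysis and hypoxia response genes, many of them activated by hypoxia-inducible factor, so the difference is no independent result. The share was 80% both for the 10 windows of the 7 genes called with IFNγ and for the 35 of the other members. The other members include genes called higher only with pairing, such as Hk1, Pdk1 and Bnip3, and some windows of the same gene overlap. The comparison therefore cannot tell whether the core goes with a rise. A further motif searched, GAS (TTCNNNGAA, N being any base), occurred in 2 of the 45 windows and in 8.3% of all windows. It occurred in 0 of the 10 windows of the genes called with IFNγ and in 2 of the 35 others, too few to compare. The 250 bases before the start are printed for 4 of the 7 genes called with IFNγ, chosen to show windows with several cores and 1 without any. Capitals mark the core read 5′ to 3′ on the printed strand, or its reverse complement, with overlapping matches joined. They lie at chr6:82774455-82774704, minus strand for Hk2, chrX:106186850-106187099, plus strand for Pgk1, chr7:46845554-46845803, plus strand for the first of the Ldha windows and chr6:124814159-124814408, minus strand for Tpi1.
Hk2: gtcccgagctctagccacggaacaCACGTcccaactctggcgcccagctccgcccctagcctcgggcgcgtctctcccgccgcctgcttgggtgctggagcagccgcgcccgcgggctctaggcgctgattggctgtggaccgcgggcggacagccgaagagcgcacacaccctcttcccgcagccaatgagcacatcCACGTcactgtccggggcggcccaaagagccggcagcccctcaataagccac
Pgk1: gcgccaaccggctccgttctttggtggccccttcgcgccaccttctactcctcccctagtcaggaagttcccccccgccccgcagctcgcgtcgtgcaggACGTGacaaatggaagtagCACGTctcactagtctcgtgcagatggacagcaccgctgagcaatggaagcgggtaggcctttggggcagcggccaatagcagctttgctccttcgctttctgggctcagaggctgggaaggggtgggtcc
Ldha: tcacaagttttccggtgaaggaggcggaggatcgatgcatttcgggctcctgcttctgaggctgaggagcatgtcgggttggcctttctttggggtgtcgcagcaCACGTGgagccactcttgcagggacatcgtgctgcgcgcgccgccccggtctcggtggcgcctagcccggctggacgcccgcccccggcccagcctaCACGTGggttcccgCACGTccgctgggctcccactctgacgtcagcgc
Tpi1: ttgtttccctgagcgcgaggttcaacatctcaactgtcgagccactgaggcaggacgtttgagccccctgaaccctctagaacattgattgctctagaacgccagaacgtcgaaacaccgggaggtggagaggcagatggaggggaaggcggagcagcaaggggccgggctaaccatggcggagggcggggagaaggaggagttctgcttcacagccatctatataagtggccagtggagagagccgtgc

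Hk2 and Pgk1 each hold 2 cores before the start, and Ldha 5, where each CACGTG counts on both strands. The Tpi1 window holds none, although Tpi1 rose by a log2 fold change of 1.05, close to the 1.09 of Pgk1. A match describes letters and is no evidence of binding.

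Osteogenic progenitors were next set against untreated adipogenic ones. Here Hk2 was the single member called: it fell, and 0 members rose. Hk2 had 30.0, 31.3 and 35.9 CPM in osteogenic and 81.8, 65.4 and 64.5 CPM in untreated adipogenic libraries. Every osteogenic library was below every adipogenic one, with a log2 fold change of -1.12 ± 0.14 and an edgeR adjusted p of 0.00711, which stayed at or under 0.0439 with any 1 of the 6 libraries left out. Over all genes 1.98% were called higher and 3.19% lower. Of the members 4 were higher and 3 lower at an unadjusted p under 0.05, again without a share over all genes. DESeq2 called 2 members higher and 3 lower, where it called 5.45% and 7.67% of all genes. With limma-voom 0 were higher and 1 lower, where it called 2.08% and 2.53%. With the replicate block 4 were called higher and 4 lower, where 11.4% and 12.2% of all genes were called, shares near those of the members. The median fold change of the members was 0.08, beside -0.02 over all genes. With scaling by library totals both medians moved down, to -0.04 for the members and -0.12 over all genes.

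In 7 members every osteogenic library lay above every untreated adipogenic one, and in 4, Hk2 among them, below, against 15.0% and 15.9% of all genes tested; in edgeR only Hk2 passed. DESeq2 also called Pfkfb3 and Hif1a higher and Hk1 and Vegfa lower. The adjusted p-values that follow are those of edgeR. Hk1 had 189, 169 and 172 CPM in osteogenic and 219, 294 and 292 CPM in adipogenic libraries, a log2 fold change of -0.60 ± 0.15 (adjusted p = 0.0549, and 0.042 without untreated library 4). Pfkfb3 had 19.6, 15.6 and 14.7 CPM in osteogenic and 10.0, 9.79 and 6.76 CPM in adipogenic libraries, a log2 fold change of 0.91 ± 0.26 (adjusted p = 0.0872). Hif1a was at 224, 244 and 243 CPM in osteogenic and 181, 184 and 173 CPM in adipogenic libraries (adjusted p = 0.104), and Vegfa at 152, 129 and 109.9 CPM in osteogenic and 194, 197 and 187 CPM in adipogenic libraries (adjusted p = 0.0759). So the fold changes of Hif1a and Vegfa had opposite signs, 0.40 and -0.56. Slc16a3 had 66.4, 21.2 and 37.1 CPM in osteogenic and 11.5, 15.1 and 0.948 CPM in adipogenic libraries; the spread in both groups was wide and the adjusted p was 0.27. For core enzymes that overlapped between these groups, the 95% interval of the log2 fold change was -0.37 to 0.28 for Pgk1, -0.34 to 0.52 for Aldoa and -0.55 to 0.50 for Pkm2. Other core enzymes, Eno1, Ldha, Tpi1 and Gapdh, were among the 7 members that lay above, and did not pass. The interval was 0.03 to 0.99 for Eno1 and 0.04 to 0.88 for Ldha (adjusted p = 0.188 and 0.179). For Tpi1 it was -0.20 to 0.69 and for Gapdh -0.36 to 0.77 (adjusted p = 0.493 and 0.664). The shares of Hk2 in hexokinase and of Ldhb in lactate dehydrogenase were below those of untreated libraries in every osteogenic library, and that of Slc16a3 in the lactate carriers above (exact permutation p = 0.1 each, 0.231 adjusted).

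Around the members, the 7 pentose phosphate genes all had negative fold changes in osteogenic against untreated adipogenic progenitors, with a median of -0.49; 0 passed in edgeR, DESeq2 or limma-voom and 3 were lower at an unadjusted p under 0.05. Of 14 further glycolysis genes 0 were called higher and 1 lower, and of 13 genes of pyruvate entry also 0 and 1. Over all genes 1.98% were called higher and 3.19% lower. Tigar, listed as 9630033F20Rik, a phosphatase that diverts sugar towards the pentose phosphate pathway, was lower by 0.73 on the log2 scale (adjusted p = 0.0433). Pcx, the pyruvate carboxylase that feeds the citric acid cycle and fat synthesis, was lower by 1.71 (adjusted p = 0.0422). Of 33 further hypoxia genes 1 was called higher and 2 lower, shares near those of all genes. Hmox1, heme oxygenase, and Adm, a vasoactive peptide, were lower by 1.55 and 3.95 (adjusted p = 0.0122 and 0.0441). P4ha1, a collagen prolyl hydroxylase, was higher by 0.95 (adjusted p = 0.0246).

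Last, IFNγ-treated adipogenic progenitors were set against osteogenic ones, a comparison that shares its libraries with the others. The groups differ in progenitor kind and in treatment, and this comparison cannot tell these apart. Glycolysis genes were higher in the IFNγ-treated adipogenic libraries: 14 members were called higher and 2 lower, where 9.2% of all genes were called higher and 7.52% lower. The median fold change was 0.66 over the members and 0.03 over all genes. In 16 members every IFNγ-treated adipogenic library lay above every osteogenic one, against 19.7% of all genes tested. In 3 members every treated library lay below, against 18.8% of all genes tested. Higher were Slc2a1, Hk1, Hk2, Gpi1, Pfkl, Aldoa, Tpi1, Pgk1, Pgam1, Pkm2, Slc16a1, Bnip3, Vegfa and Ankrd37, and lower were Pfkfb3 and Hif1a. The counts of 14 and 2 became 10 and 1, 9 and 2, and 9 and 2 without IFNγ-treated library 4, 5 or 6. Without osteogenic library 4, 5 or 6 they became 6 and 0, 8 and 1, and 7 and 1. Over all genes, higher calls also fell in these fits, from 1389 to between 747 and 1186. Lower calls over all genes fell from 1136 to between 543 and 842. Hk1, Hk2, Pfkl, Pgk1 and Pgam1 kept their call in all 6 of these fits.

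**Figure D5:**
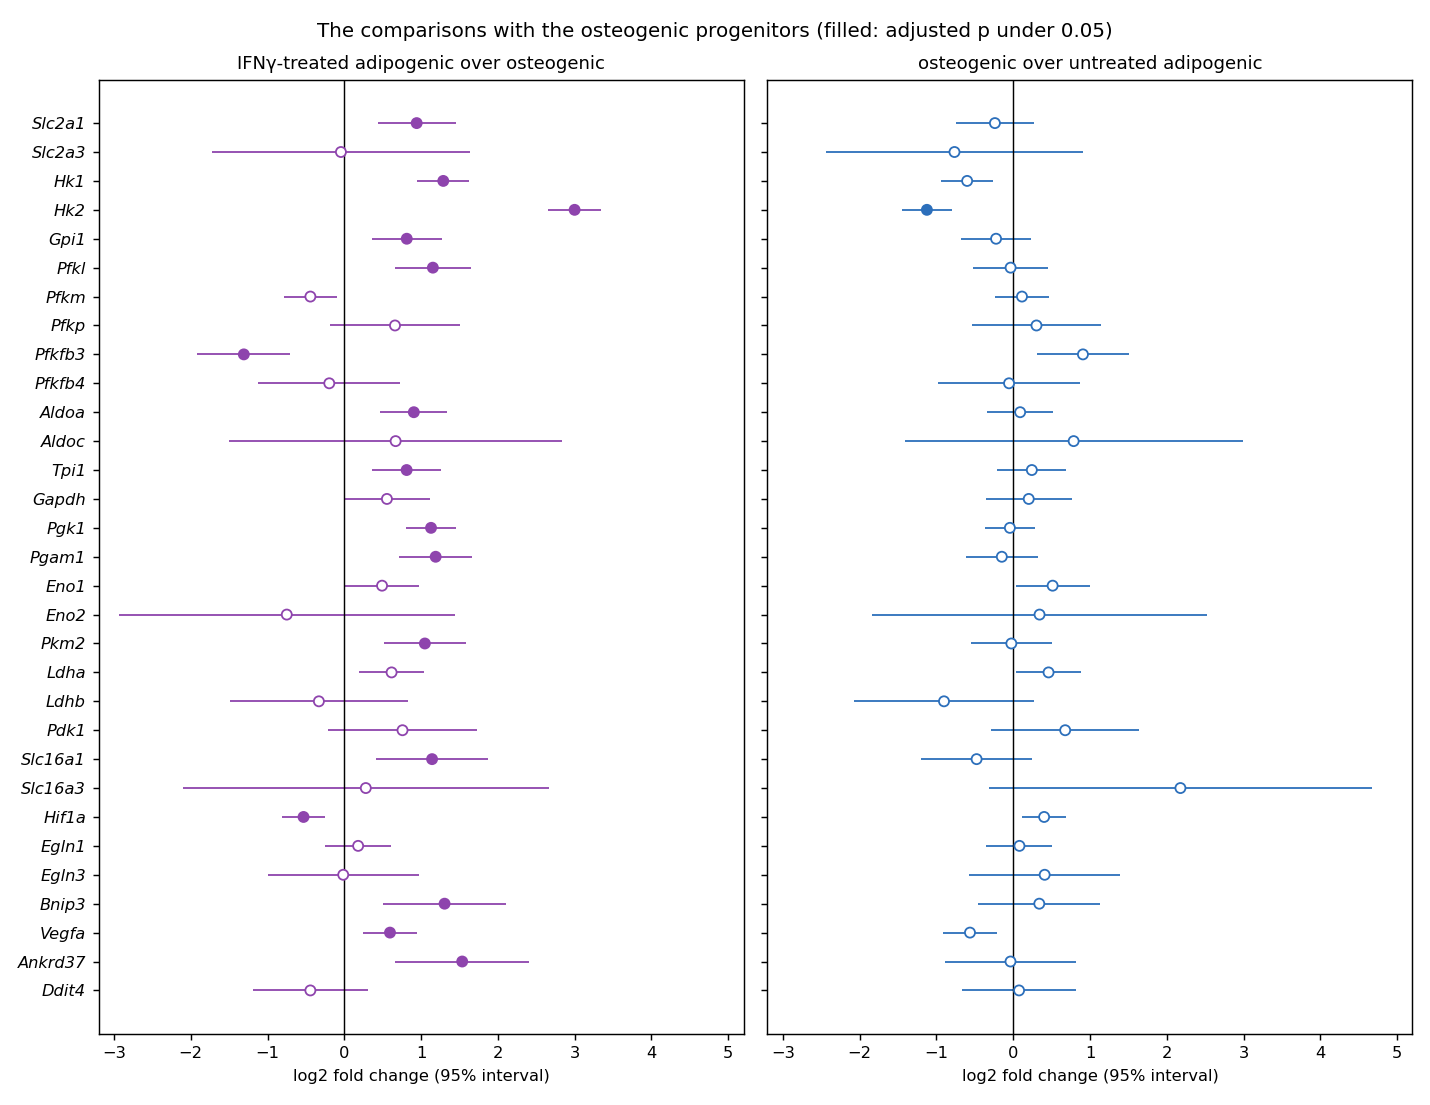
Log2 fold change with its 95% interval for each tested gene, IFNγ-treated adipogenic over osteogenic (left) and osteogenic over untreated adipogenic progenitors (right), from the fit without pairing. Filled points passed an adjusted p of 0.05: 14 genes right of 0 and 2 left of it in the left panel, and Hk2 alone in the right panel.

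Hk2 was 259 CPM on average in IFNγ-treated adipogenic and 32.4 CPM in osteogenic progenitors, a log2 fold change of 3.00 ± 0.15 (adjusted p = 2.04e-05). Hk1 followed with 403, 438 and 457 CPM in treated adipogenic and 189, 169 and 172 CPM in osteogenic libraries, a log2 fold change of 1.29 ± 0.15 (adjusted p = 0.00114). Neither hexokinase overlapped between the groups. Slc2a1 had 189, 175 and 119 CPM in treated adipogenic and 78.5, 70.2 and 103 CPM in osteogenic libraries (log2 fold change 0.94 ± 0.22, adjusted p = 0.0242), and Gpi1 had 371, 257 and 275 CPM in treated adipogenic and 187, 179 and 148 CPM in osteogenic libraries (0.81 ± 0.20, adjusted p = 0.0279). All treated libraries lay above all osteogenic ones in both. Pfkl had 328, 373 and 289.8 CPM in treated adipogenic and 173, 159 and 113 CPM in osteogenic libraries, and its log2 fold change of 1.15 ± 0.22 passed at 0.00974. Pfkm was at 67.5, 76.0 and 81.2 CPM in treated adipogenic and 96.0, 112 and 97.0 CPM in osteogenic libraries, with the groups apart the other way (adjusted p = 0.0839, not passed). Pfkfb3 was lower in treated adipogenic libraries, at 8.69, 6.57 and 4.85 CPM, against 19.6, 15.6 and 14.7 CPM in osteogenic ones (log2 fold change -1.31 ± 0.27, adjusted p = 0.014, and 0.052 without osteogenic library 4). Untreated adipogenic libraries had 10.0, 9.79 and 6.76 CPM of it.

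From aldolase to pyruvate kinase, 5 genes passed. Aldoa had 536, 659.9 and 493 CPM in osteogenic libraries, Tpi1 308, 335 and 293, Pgk1 19.8, 22.5 and 20.5, Pgam1 9.25, 11.2 and 10.9 and Pkm2 902, 1144 and 1426. Against these, the treated adipogenic libraries had log2 fold changes of 0.91, 0.81, 1.13, 1.19 and 1.05, and none of the 5 genes overlapped between the groups. Their adjusted p-values were 0.0159, 0.0268, 0.00198, 0.0074 and 0.0192. Gapdh had 3.69, 4.33 and 3.61 CPM in osteogenic libraries, overlapped with the treated adipogenic ones and did not pass (adjusted p = 0.161). Eno1 and Ldha had 212, 246 and 267 and 408, 447 and 405 CPM in osteogenic libraries, between the means of the other groups. Both were apart from the treated adipogenic libraries without passing (adjusted p = 0.148 and 0.0543).

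Slc16a1 had 97.1, 43.6 and 54.9 CPM in IFNγ-treated adipogenic and 31.8, 28.6 and 28.2 CPM in osteogenic libraries, a log2 fold change of 1.14 ± 0.32 (adjusted p = 0.044). Slc16a3, by contrast, overlapped between these groups (0.28 ± 1.04, adjusted p = 0.885). Of the hypoxia genes, Bnip3 had 74.0, 53.0 and 35.9 CPM in treated adipogenic and 19.8, 32.0 and 14.1 CPM in osteogenic libraries (log2 fold change 1.31 ± 0.35, adjusted p = 0.0385). Ankrd37 had 3.19, 4.34 and 4.77 CPM in treated adipogenic and 1.12, 2.14 and 0.988 CPM in osteogenic libraries (1.54 ± 0.38, adjusted p = 0.0287). Vegfa had 169, 198 and 223 CPM in treated adipogenic and 152, 129 and 109.9 CPM in osteogenic libraries (0.59 ± 0.15, adjusted p = 0.0341). Hif1a was lower in treated adipogenic libraries, at 141, 169 and 182 CPM, against 224, 244 and 243 CPM in osteogenic ones (-0.53 ± 0.12, adjusted p = 0.0239). The groups did not overlap in these 4 genes. Egln1, Egln3 and Ddit4 overlapped and did not pass, with log2 fold changes of 0.18, -0.01 and -0.44. The calls of Slc2a1, Gpi1, Aldoa, Tpi1, Pkm2, Slc16a1, Bnip3, Vegfa, Ankrd37, Hif1a and Pfkfb3 were each lost in 1 to 5 of the 6 fits with a library left out, with adjusted p-values up to 0.126.

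Calls in the other lists stand beside 9.2% of all genes called higher and 7.52% lower. Of 7 pentose phosphate genes 1 was called higher and 0 lower. This was G6pdx, the first enzyme of the pathway, higher by 1.18 ± 0.28 in IFNγ-treated adipogenic than in osteogenic progenitors (adjusted p = 0.0242). Of 14 further glycolysis genes 2 were called higher and 1 lower. Among these, Pgm2, a phosphoglucomutase, was higher by 0.87 ± 0.16 (adjusted p = 0.00949). Of 13 genes of pyruvate entry 2 were called higher and 3 lower. The kinases of pyruvate dehydrogenase among them were split, with Pdk3 higher by 0.73 and Pdk2 and Pdk4 lower at log2 fold changes of -0.99 and -1.71 (adjusted p = 0.0242, 0.0205 and 0.0241). Of the 16 citric acid cycle genes 0 were called higher and 1 lower, Dlst, a subunit of the oxoglutarate dehydrogenase complex, at -0.79 (adjusted p = 0.0286).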

How the data were processed

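Poly(A)-selected RNA of 9 libraries was prepared with a directional kit and sequenced as single 75-base reads, per the labels' protocols. The deposited table holds raw counts per gene, made by the authors from reads processed with CASAVA 1.8.0 and bedtools 2.11 on mm9, per the submitters' processing notes. The aligner, the counting rule and its use of strand were not given in the sources used here. Of several identifiers with 1 name, the one with most counts was kept.

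Counts of all 9 libraries were fitted with edgeR 4.0.16 in R 4.3.3 (quasi-likelihood F test, group means, robust), after filterByExpr left 15098 genes and TMM scaling, with Benjamini-Hochberg adjustment over all of them. CPM per kilobase divides by the exonic length deposited by the authors. DESeq2 1.42.0, limma-voom (limma 3.58.1), other scalings, no filter, the 6 libraries compared alone, and each library left out were alternatives, and the code was tested on simulated data. Same-numbered IFNγ-treated and untreated adipogenic libraries had correlated deviations from their group means (r = 0.778, 0.769 and 0.779 over genes), so their numbers were taken as pairs; osteogenic and adipogenic ones did not (-0.0269, -0.0546 and -0.0541). Isozyme shares were compared with exact permutation tests in scipy 1.17.1. Members that passed in any comparison, and Gapdh, Hif1a, Vegfa, Slc2a1, Hk1 and Hk2, were given per library; of other lists up to 4 genes of smallest adjusted p with at least 1 CPM in the higher group could be named. Other members with values were chosen after these were seen. Members and lists were chosen with earlier results of these data known.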

Additional observations from a re-analysis of the deposited data

How the results depend on the processing

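With IFNγ, 7 became 4 under upper-quartile scaling and 4 with library totals (Pfkl, Aldoa and Pgam1 lost in both), 13 with DESeq2 (4.74% of all genes), 2 with the 6 libraries alone, and 2 to 4 with 1 library left out. Over all genes, 304 higher calls became 271 under upper-quartile scaling, 272 with library totals and 169 with the 6 libraries alone. The replicate block gave 16 higher and 1 lower, and 3, 4 and 5 higher and 0 lower without replicate 4, 5 or 6 of both groups, an alternative chosen after seeing the data. Osteogenic against untreated adipogenic, 1 lower became 2 with library totals, 3 with DESeq2, 4 with the replicate block and 1 to 2 with 1 library left out; 0 higher became 2 with DESeq2, 4 with the replicate block and 1 with the block over all 9 libraries. The replicate block called 11.4% of all genes higher and 12.2% lower there, and DESeq2 5.45% and 7.67%. With the block over all 9 libraries 527 genes were called higher and 717 lower of 15098 tested. In IFNγ-treated adipogenic against osteogenic cells, 14 higher became 6 to 10 and 2 lower became 0 to 2 with 1 library left out. The 2 lower became 5 with the replicate block and 1 with the 6 libraries alone. Over all genes, 1136 lower calls became 2712 of 15098 tested with the replicate block and 1005 of 14562 with the 6 libraries alone. For both comparisons with osteogenic cells the block takes differences between adipogenic libraries out of the error, so its p-values are too small. With fewer libraries fewer degrees of freedom remain; the cause of the other changes was not tested. Non-overlapping isozyme shares numbered 8 instead of 5 when pairs (replicate block) had to move 1 way, and 3 to 6 (main 3) in osteogenic against untreated adipogenic and 5 to 6 in the others with 1 library left out. The sign of Vegfa with IFNγ reversed under upper-quartile scaling (-0.015), without treated replicate 6 (-0.058; -0.058 to 0.143 with 1 library left out) and in the replicate block without replicate 6 (-0.085). Of 596 alternative values for single genes, 483 kept sign and side of the threshold, 97 lost and 13 gained the call. Library totals moved the median of all genes to -0.12 in osteogenic against untreated adipogenic and to 0.12 in IFNγ-treated adipogenic against osteogenic cells; 25.5% instead of 38.3% and 65.3% instead of 55.0% of all calls were then higher. Counts were fewest for Car9, Aldoc, Ankrd37 and Slc2a3 (73, 342, 721 and 741 over all libraries), where depth limits the precision.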

Other observations

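Genes often used to scale expression measurements were compared in the same way. Of 12 such genes 0 were called between IFNγ-treated and untreated adipogenic progenitors by edgeR (2 higher at an unadjusted p under 0.05, 2 higher with DESeq2 and 0 with limma-voom), with a median log2 fold change of 0.04. Between IFNγ-treated adipogenic and osteogenic progenitors 2 of the 12 were called higher and 1 lower by edgeR, with 10 positive fold changes and a median of 0.19. In that comparison edgeR called 9.2% of all genes higher and 7.52% lower. DESeq2 called 3 of the 12 higher and 1 lower, and limma-voom 1 higher and 1 lower. The one called lower by edgeR, Actb, cytoplasmic actin, was lower in the treated adipogenic libraries by 1.08 ± 0.25 (SE) on the log2 scale (adjusted p = 0.0242). Between osteogenic and untreated adipogenic progenitors 0 were called higher and 1 lower by edgeR (3 higher and 2 lower at an unadjusted p under 0.05, 1 higher and 1 lower with DESeq2, 0 higher and 1 lower with limma-voom). There edgeR called 1.98% of all genes higher and 3.19% lower.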
